A study of Macaca mulatta with 30 samples.

Results

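Matrix metalloproteinases (MMPs), the related ADAM and ADAMTS proteinases, the ADAMTS-like proteins and the TIMP inhibitors were followed over 5 rhesus macaque RNA samples. A gene was included when a probeset with a single symbol in the platform annotation carried an MMP, TIMP, ADAM, ADAMTS or ADAMTSL name. The probeset with the highest mean signal over all arrays represented the gene. This gave 55 of 14133 genes, with 110 of 24969 probesets. There were 22 MMPs, 3 TIMPs, 9 ADAMs, 17 ADAMTS genes and 4 ADAMTS-like genes. The RNA was extracted from cerebral cortex at Yerkes, from immortalized fibroblasts at Nebraska, and from pancreas, testis and thymus at Oregon. The labels give no treatment, age or number of animals. The fibroblasts were a cell line, while the other 4 sources were whole tissues, so that growth in culture and cell type cannot be told apart. Every RNA was hybridized with the rhesus macaque GeneChip as 2 aliquots at each of 3 centers (Oregon, Nebraska and Yerkes), which gave 30 arrays and 6 arrays per tissue. There was 1 RNA sample per tissue, so the errors and p-values below cover differences between arrays of the same RNA and say nothing of differences between animals. In bulk RNA, fewer cells of a type and less RNA per cell cannot be told apart.

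MMPs are zinc proteinases that cleave collagens, elastin, proteoglycans and many soluble proteins. Most are secreted as inactive zymogens, some are anchored in the membrane, and TIMPs block their active site. ADAMs are membrane proteins that release the outer part of growth factors, cytokines and adhesion molecules, although several have lost the catalytic residues and serve in cell adhesion, among them sperm and neuronal forms. ADAMTS proteinases are secreted and act on proteoglycans such as aggrecan and versican, on procollagens or on von Willebrand factor. ADAMTS-like proteins share their matrix-binding parts but have no proteinase domain. Cultured fibroblasts are a well-known source of collagenases and stromelysins, and macrophages, neutrophils and endothelium make others.

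Values are log2 signals summarized by RMA. Array means were 6.32 to 6.33 at Oregon, 6.35 to 6.39 at Nebraska and 6.90 to 6.93 at Yerkes, where the arrays were normalized separately, so center was a term of the limma fit. The median signal of the pancreas arrays was above that of each other tissue at every center, with 6.18 (Oregon), 6.22 (Nebraska) and 6.81 (Yerkes). The paper reports lower data quality for pancreas than for the other sources, by larger scaling factors and larger standardized errors of the RMA summary. It advises caution with the pancreas arrays, and this holds for every pancreas value below. By the rule for calls given below, tissue markers were called where the labels placed them for 6 of 6 cortex genes, 5 of 6 fibroblast genes, 5 of 5 pancreas genes, 4 of 4 somatic testis genes, 3 of 4 genes of spermatogonia and spermatocytes and 3 of 4 thymocyte genes. Of 5 spermatid markers 1 was called in testis, where the protamine PRM1 was at 6.35 and the acrosomal proteinase ACR at 5.69. As a sign of RNA and labeling quality, the log2 signal of the GAPDH control was higher at its 3' end than at its 5' end, with mean differences of 1.81 ± 0.58 (SD, n = 6 arrays) in fibroblast, 1.58 ± 0.49 in pancreas, 0.82 ± 0.42 in cerebral cortex, 0.69 ± 0.29 in testis and 0.47 ± 0.36 in thymus. Differences between the 2 aliquots of a tissue and center had an SD over the 55 genes of 0.116 to 0.255, with a median of 0.172.

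Fibroblast was the tissue in which these genes stood out. Calls in a tissue required a signal above every one of the other 4 tissues with a limma adjusted p under 0.05 (Benjamini-Hochberg, over all probesets) and a distance of at least 1 on the log2 scale from the highest of them. Of the 55 genes, 16 were called in fibroblast, or 29.1%, against 4.63% of all genes. In testis 2 genes (3.64%) were called and 1.97% of all genes. In thymus 1 gene (1.82%) was called and 3.33% of all genes. None was called in cerebral cortex or pancreas, against 5.63% and 1.98% of all genes, and none passed there at an unadjusted limma p under 0.05 with the same minimum either. Without the minimum of 1, 1 gene exceeded every other tissue in cerebral cortex and 15 did so in pancreas, where 13.3% and 21.2% of all genes did. No gene was called lower in 1 tissue than in all others, by adjusted or unadjusted p, while 5.02% of all genes were. In all, 19 genes (34.5%) were called and 36 were not, against 17.5% of all genes. The median distance of fibroblast from the highest other tissue was -0.14 for the 55 genes and -0.48 for all genes. For thymus it was -0.94 and -0.58, and for cerebral cortex -0.95 and -0.57. The range over tissues was alike, with a median of 1.21 for these genes and 1.20 for all.

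**Figure D1:**
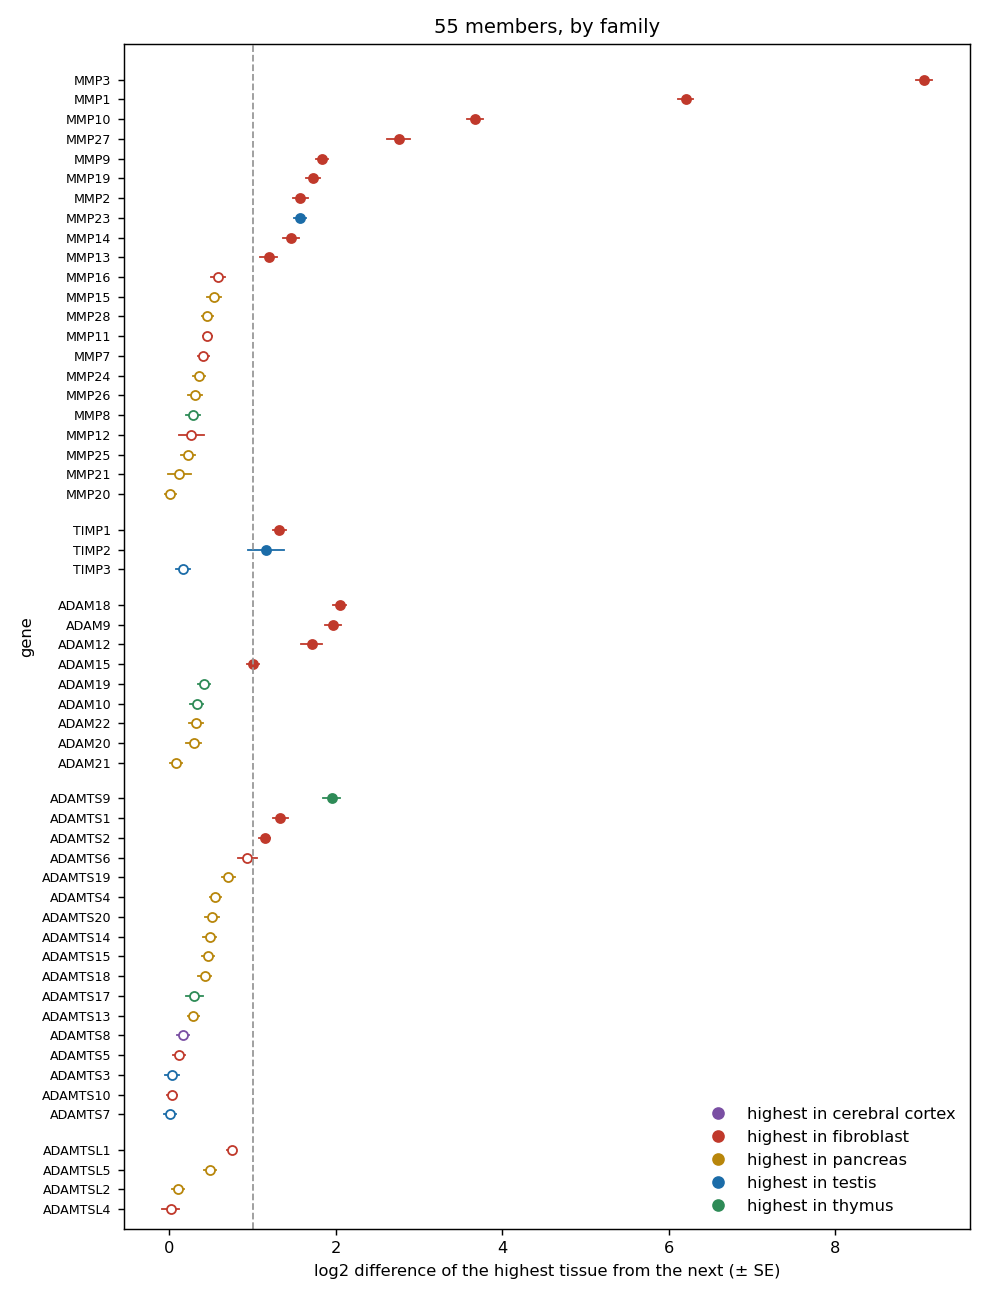
Log2 difference between the tissue with the highest mean and the next tissue (x axis, points, with the standard error as bars) for 55 genes (y axis, grouped by family), colored by the highest tissue. Filled points were called and open points were not, and the dashed line marks a difference of 1. MMP3 lies farthest out at 9.07, and each of the 19 genes that were highest in pancreas stays at 0.71 or less.

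The largest differences came from genes that lie next to each other. In the rhesus assembly T2T-MMU8v2.0, MMP7, MMP20, MMP27, MMP8, MMP10, MMP1, MMP3, MMP12 and MMP13 are 9 consecutive protein-coding genes on 1 chromosome. Of these 9 genes, 5 were called in fibroblast, where 4.63% of all genes were. The group holds the genes with the largest differences, so this count is a description. MMP3 (stromelysin-1), which cleaves proteoglycans and activates other MMP zymogens, ranged from 13.56 to 14.37 with a median of 13.81 on the 6 fibroblast arrays. On the other 24 arrays its signal was between 3.89 in testis and 5.21 in thymus, so the groups did not overlap. The difference from pancreas, the next tissue, was 9.07 (SE 0.09, adjusted p = 6.51e-36), a 537-fold ratio of RMA signals. It was present at each center (Oregon 8.82, Nebraska 9.32, Yerkes 9.07). Its signal lay above the median of the array on the 6 fibroblast arrays and on none of the others, and no detection call was used here to tell a low signal from none.

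MMP1, the interstitial collagenase that opens fibrillar collagen, lay between 11.84 and 12.45 in fibroblast with a median of 11.98. Thymus, with 5.61 to 6.11 and a median of 5.98, was the next tissue, at a distance of 6.20 (SE 0.09, adjusted p = 1e-31). The thymus arrays were in turn above those of cerebral cortex, pancreas and testis, where MMP1 averaged 4.62, 4.80 and 4.55 (pancreas minus thymus -1.10, SE 0.09, adjusted p = 5.02e-12). MMP10 (stromelysin-2) had a lowest, median and highest signal of 8.38, 8.54 and 9.22 in fibroblast. Its means were 5.02 in pancreas, 4.66 in thymus, 4.10 in testis and 3.96 in cerebral cortex, and the difference from pancreas was 3.67 (SE 0.10, adjusted p = 2.64e-25). Fibroblast was thus far above all other arrays for each of these 3 genes.

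MMP27, a less studied enzyme, was lower in signal but followed the same pattern. Its fibroblast arrays ran from 5.61 to 6.98 with a median of 6.27, and 4 of the 6 lay above the median of the array. The other tissues averaged 2.74 to 3.53, and the difference from pancreas was 2.76 (SE 0.14, adjusted p = 9.39e-18). MMP13 (collagenase-3) reached 5.76 to 6.50 in fibroblast with a median of 5.88, against 4.52 to 5.33 in thymus. The difference of 1.19 (SE 0.10, adjusted p = 1.57e-12) was called although MMP13 stayed below the array median on all 30 arrays.

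MMP12, the macrophage elastase, was high in a pair of tissues and so was not called. Its signal was 9.48 to 10.05 in fibroblast with a median of 9.73, and 9.40 to 9.60 in thymus with a median of 9.46. Testis averaged 5.15 ± 0.18 (SD, n = 6 arrays), cerebral cortex 4.16 ± 0.35 and pancreas 4.17 ± 0.50. Fibroblast exceeded thymus by 0.27 (SE 0.15, 95% interval -0.03 to 0.56), which did not pass at an adjusted p of 0.121. Thymus exceeded testis by 4.32 (a difference of -4.32 for testis minus thymus, SE 0.15). The mean of 6 macrophage and neutrophil markers was 8.42 in thymus, 6.78 in cerebral cortex and 5.80 in fibroblast. Of the 6, LYZ, ELANE and S100A8 were called in thymus, but the macrophage markers CD68 and CSF1R were not. CD68 was at 6.20 in thymus, below cerebral cortex, testis (7.26) and pancreas (6.33). CSF1R was at 7.47 in thymus, 7.42 in cerebral cortex and 7.40 in testis. In fibroblast the lysosomal marker CD68 was at 5.55 and lysozyme (LYZ) at 4.70, and in cerebral cortex CD68 was at 9.61 while MMP12 was at 4.16. The part of such cells in the thymus signal of MMP12 was not tested.

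The other cluster genes differed less between tissues. MMP8, the collagenase of neutrophils, was highest in thymus at 5.74 ± 0.34 and 0.28 (SE 0.08) above pancreas. MMP20, the enamel proteinase, was flat with tissue means of 5.09 to 5.26. Both stayed below the array median on all 30 arrays. MMP7 (matrilysin), a small enzyme of glandular epithelium, averaged 8.41 in fibroblast and 8.01 in testis by its brightest probeset, a difference of 0.41 (SE 0.06). Its other probesets gave a different order, described with the probesets below.

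**Figure D2:**
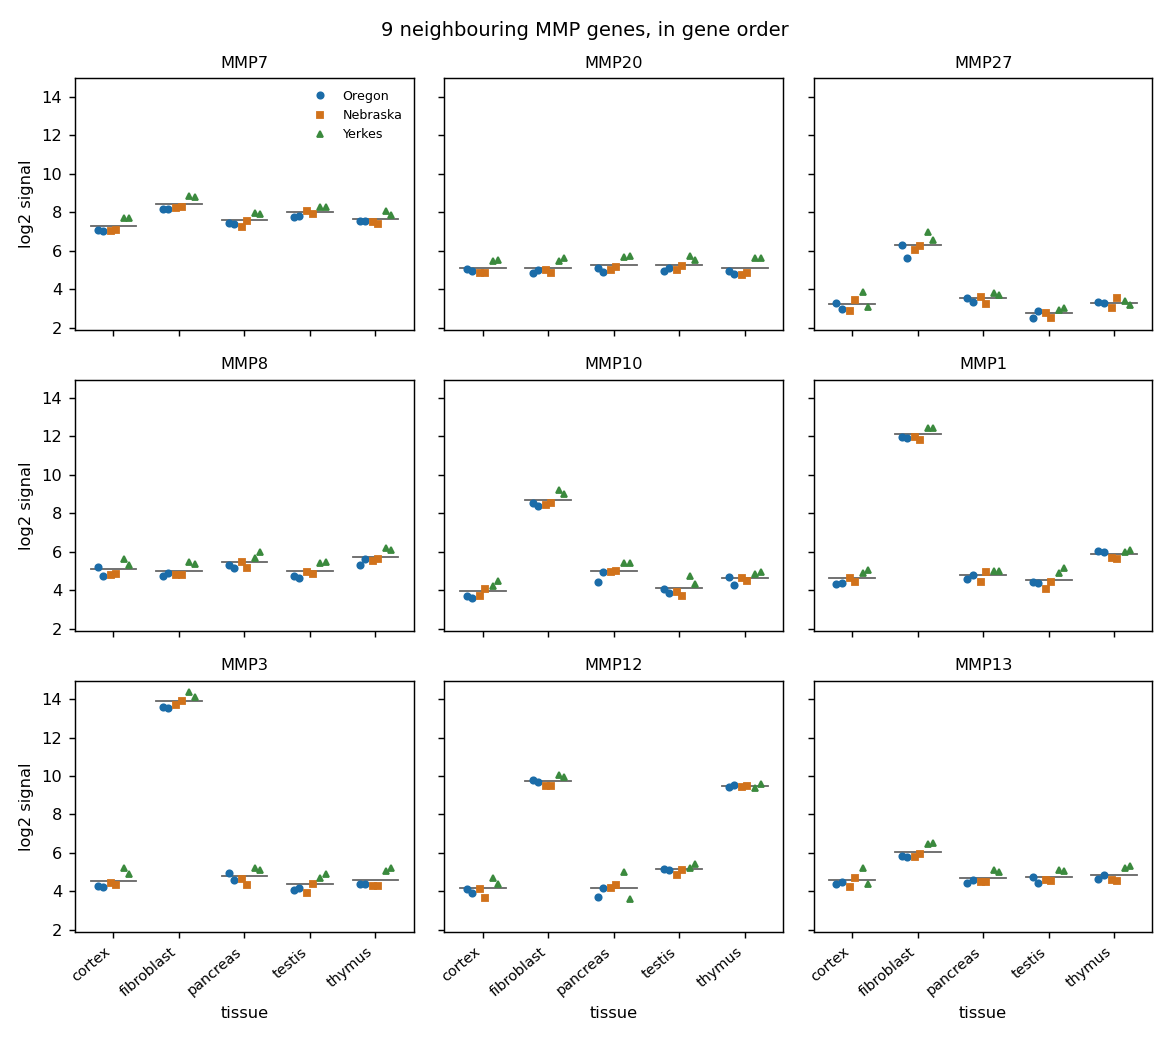
Log2 signal (y axis) on each array by tissue (x axis) for 9 neighbouring MMP genes in gene order, with symbols for the center and a horizontal line at the mean of 6 arrays. MMP3, MMP1, MMP10, MMP27 and MMP13 are highest in fibroblast, MMP12 is high in fibroblast and thymus, and MMP20 and MMP8 stay low in every tissue.

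The gelatinases MMP2 and MMP9, which digest denatured collagen and basement membrane collagen, were both called in fibroblast but differed in the tissue that came next. MMP2 was at 12.08 to 12.59 in fibroblast with a median of 12.35. Testis followed at 10.59 to 10.97 with a median of 10.77, and the difference was 1.57 (SE 0.09, adjusted p = 6.07e-16). The testis signal of MMP2 was itself 3.85 (SE 0.09) above thymus, and pancreas stood between them at 8.38 ± 0.39. MMP2 was therefore high in the fibroblasts and the testis and low in thymus and cerebral cortex. MMP9 ranged from 9.66 to 10.44 in fibroblast with a median of 9.92. Here thymus came next with 7.97 to 8.46 and a median of 8.07, and fibroblast was 1.83 (SE 0.07, adjusted p = 9.21e-21) above it. Cerebral cortex, pancreas and testis averaged 5.92, 6.21 and 6.31 for MMP9. By the brightest probeset, no fibroblast array overlapped with an array of another tissue for either gelatinase, as for 7.28% of all genes. Both were called on these same arrays, so this is a description. A second MMP2 probeset did not separate fibroblast from pancreas, as described with the probesets.

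Of the 5 membrane-type MMPs, MMP14 was called. MMP14 activates the zymogen of MMP2 at the cell surface. Its fibroblast signal was 8.69 to 9.74 with a median of 9.37, and that of pancreas, the next tissue, 7.55 to 8.29 with a median of 7.62. The difference was 1.46 (SE 0.10, adjusted p = 1.79e-14), and within centers it varied (Oregon 1.76, Nebraska 1.14, Yerkes 1.49). When all 30 arrays were quantile normalized together the difference was 0.88, short of the minimum of 1. MMP16, another membrane form, averaged 7.90 ± 0.43 in fibroblast and 7.31 ± 0.33 in cerebral cortex, and the difference of 0.59 was not called. MMP15, MMP24 and MMP25 were highest in pancreas by 0.22 to 0.54 and were not called.

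MMP19, a secreted proteinase of many tissues, completed the 9 MMPs called in fibroblast. It ranged from 8.87 to 9.50 there with a median of 8.97, against 7.17 to 7.81 in testis, and the difference was 1.72 (SE 0.09, adjusted p = 7.8e-18). The only MMP called in another tissue was MMP23, an unusual membrane form known from reproductive organs. MMP23 ranged from 8.39 to 9.20 in testis with a median of 8.84. Fibroblast was next at 6.84 to 7.77, and the difference of 1.57 (SE 0.08, adjusted p = 2.83e-18) held within every center (Oregon 1.59, Nebraska 1.68, Yerkes 1.43). MMP11, a stromelysin by name, was at 7.14 ± 0.34 in fibroblast and 6.69 ± 0.36 in testis, which was not called. MMP21, MMP26 and MMP28 were highest in pancreas by 0.12 to 0.46 and were not called.

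TIMP1, a broad MMP inhibitor, was high in the same tissues as MMP2. Its lowest, median and highest signals were 11.93, 12.31 and 12.81 in fibroblast and 10.86, 10.95 and 11.29 in testis. Means were 8.63 in thymus, 7.71 in pancreas and 6.80 in cerebral cortex. Fibroblast was 1.32 (SE 0.08, adjusted p = 4.55e-16) above testis, and testis was 2.39 (SE 0.08) above thymus. The arrays of fibroblast, testis and thymus did not overlap for TIMP1. A pair of dimmer TIMP1 probesets was also highest in fibroblast, but by 0.53 and 0.43 over cerebral cortex, and neither was called.

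TIMP2, which both inhibits MMP2 and takes part in its activation by MMP14, was called in testis by its brightest probeset, but this rested on the center. The testis arrays had TIMP2 signals of 9.94 and 9.92 (Oregon), 10.76 and 9.95 (Nebraska) and 10.40 and 10.35 (Yerkes). The fibroblast arrays had 9.96 and 9.96 (Oregon), 8.08 and 8.004 (Nebraska) and 9.28 and 9.09 (Yerkes). The tissues were thus nearly level at Oregon, with fibroblast slightly above testis. At the other centers testis was above fibroblast, most at Nebraska. The pooled difference was 1.16 (SE 0.22, adjusted p = 3.04e-05), while within centers it ran from -0.02 (Oregon) over 1.19 (Yerkes) to 2.31 (Nebraska). Without the Nebraska arrays it was 0.58, short of the minimum of 1. The tissue by center interaction passed at a limma adjusted p of 6.55e-06. In fibroblast, the excess of the 3' over the 5' end of the GAPDH control was also greatest at Nebraska (Oregon 1.40, Nebraska 2.52, Yerkes 1.501; means of 2 arrays), as was that of ACTB (1.42, 2.62 and 1.97). In testis the GAPDH values were 1.04, 0.512 and 0.516 for the same centers. The part of these in the TIMP2 signal was not tested. Another TIMP2 probeset gave 9.73 in fibroblast and 9.18 in testis, the opposite order. Cerebral cortex, pancreas and thymus averaged 8.60, 8.27 and 7.70 for the brightest TIMP2 probeset.

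TIMP3, which binds to the matrix and also inhibits ADAM and ADAMTS enzymes, did not follow TIMP1. It was 7.10 to 7.78 in testis, 7.14 to 7.67 in cerebral cortex and 6.80 to 7.61 in pancreas, and these arrays overlapped. Testis and cerebral cortex did not differ at the threshold (cerebral cortex minus testis -0.16, SE 0.08, 95% interval -0.33 to 0.01, adjusted p = 0.0819). Fibroblast was lower than testis (-0.87, SE 0.08, adjusted p = 6.27e-11), with 6.42 to 6.96, and thymus was lowest with 5.89 to 6.84. In fibroblast TIMP3 was thus among the lower tissues where TIMP1 was the highest.

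**Figure D3:**
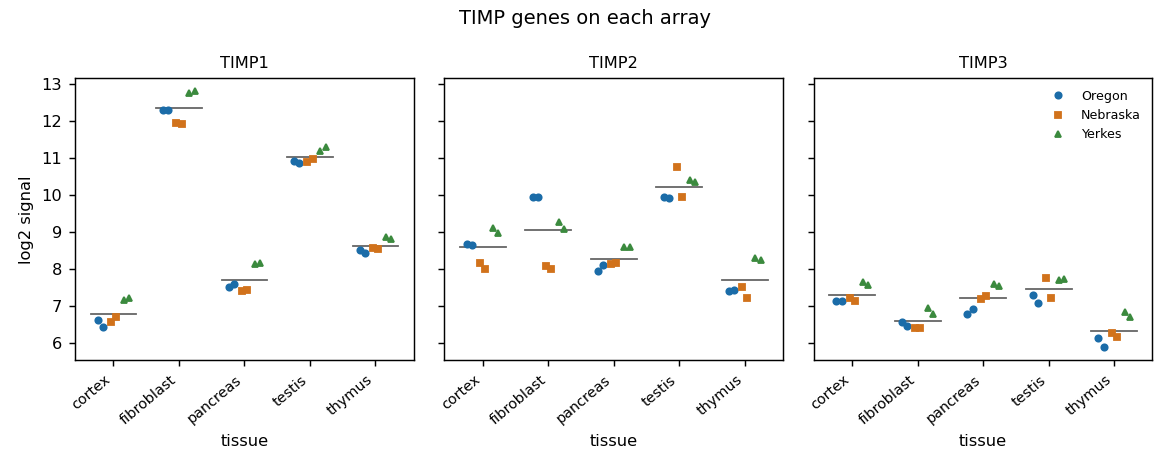
Log2 signal (y axis) of TIMP1, TIMP2 and TIMP3 on each array by tissue (x axis), with symbols for the center and a line at the mean of 6 arrays. TIMP1 is highest in fibroblast at every center, and the fibroblast arrays of TIMP2 spread from 8.004 at Nebraska to 9.96 at Oregon.

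Among the ADAMs with an active site, ADAM9, ADAM12 and ADAM15 were called in fibroblast. ADAM9, a widely expressed sheddase, was at 9.24 to 9.997 in fibroblast with a median of 9.52, and at 7.46 to 7.83 in testis. The difference was 1.96 (SE 0.10, adjusted p = 1.12e-17), between 1.82 at Nebraska and 2.13 at Yerkes. ADAM12, a proteinase of mesenchymal cells that also acts on growth factor binding proteins, had fibroblast signals of 9.77 to 10.63 with a median of 10.18. Thymus was next with 7.99 to 8.89 and a median of 8.59, a distance of 1.71 (SE 0.13, adjusted p = 1.83e-13), and testis followed at 7.16 ± 0.24. Cerebral cortex and pancreas were far lower for ADAM12, at 5.03 ± 0.38 and 5.37 ± 0.37. ADAM15, an ADAM with an integrin-binding loop, was just inside the minimum. Its signal was 8.06 to 8.85 in fibroblast and 7.15 to 7.81 in cerebral cortex, and the difference was 1.00 (SE 0.07, adjusted p = 1.42e-13) over all arrays and 0.717 at Oregon. The call of ADAM15 was lost without the Nebraska arrays (0.874), without the Yerkes arrays (0.989) and after quantile normalization of all 30 arrays together (0.793). It was also lost with the mean over all probesets (0.43).

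ADAM10, the sheddase of NOTCH receptors and of the amyloid precursor protein, lay above the array median on all 30 arrays and was highest in thymus. Its lowest, median and highest signals in thymus were 10.14, 10.34 and 10.44. Testis had 9.73 to 10.21, fibroblast 9.35 to 10.06, cerebral cortex 8.47 to 8.91 and pancreas 7.98 to 8.34. The order of the means was thus thymus, testis, fibroblast, cerebral cortex and pancreas. Thymus exceeded testis by 0.33 (a difference of -0.33 for testis minus thymus, SE 0.08, adjusted p = 0.000497), below the minimum. Fibroblast was 0.29 below testis (-0.29, SE 0.08, adjusted p = 0.00181) and pancreas 2.14 below thymus (-2.14, SE 0.08). ADAM19 was also highest in thymus, by 0.42, and ADAM20 and ADAM21 were highest in pancreas by 0.29 and 0.08. None of these was called.

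The 2 ADAMs without an active site were not highest, by the brightest probeset, in the tissue they are best known from. ADAM18, known as a sperm surface protein, was at 9.96 to 10.89 in fibroblast with a median of 10.40. In testis it was at 7.49 to 8.12 with a median of 7.63, as low as in pancreas, and the next tissue after fibroblast was thymus at a distance of 2.04 (SE 0.08, adjusted p = 1.34e-20). ADAM22, a neuronal receptor for LGI proteins, was at 6.82 to 7.74 in pancreas and 6.45 to 7.53 in cerebral cortex, and the difference of 0.32 (SE 0.09, adjusted p = 0.00144) was below the minimum. For both genes a dimmer probeset gave another tissue, as described with the probesets.

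ADAMTS1 and ADAMTS2 were called in fibroblast. ADAMTS1, a proteinase of versican and aggrecan, ranged from 8.85 to 9.63 in fibroblast with a median of 9.29. Testis was next with 7.52 to 8.30, and the difference was 1.33 (SE 0.09, adjusted p = 4.82e-14). ADAMTS2 removes the N-propeptide of fibrillar procollagens. It was at 8.49 to 9.12 in fibroblast with a median of 8.97 and at 7.44 to 7.96 in testis, 1.15 (SE 0.06, adjusted p = 2.01e-16) lower. The gene next to ADAMTS1, ADAMTS5, the main aggrecanase of cartilage, did not separate these tissues. ADAMTS5 averaged 8.02 ± 0.27 in fibroblast and 7.90 ± 0.21 in testis, and their difference of 0.12 (SE 0.07, 95% interval -0.02 to 0.26) had an adjusted p of 0.134. Testis exceeded thymus by 2.01 (SE 0.07) for ADAMTS5. ADAMTS3, the other procollagen enzyme that varied, instead had its highest means in testis (6.58) and cerebral cortex (6.55; cerebral cortex minus testis -0.03, 95% interval -0.21 to 0.14). Cerebral cortex was 1.28 (SE 0.09) above fibroblast for ADAMTS3.

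ADAMTS9, a proteinase of versican and aggrecan, was the gene called in thymus. Its thymus signal was 11.26 to 11.66 with a median of 11.31. Testis was next with 9.29 to 9.75 and fibroblast followed with 8.48 to 9.30. The difference between thymus and testis was 1.95 (SE 0.10, adjusted p = 1.6e-17), and held at every center (Oregon 1.92, Nebraska 1.99, Yerkes 1.94). No thymus array overlapped with another tissue for the brightest ADAMTS9 probeset. This is a description of a gene called on these same arrays, and no share of all genes was computed for it. Endothelial and pericyte markers averaged 7.16 in thymus, 7.34 in pancreas and 6.85 in testis (4 of 5 listed genes measured). Of these markers the endothelial adhesion molecule PECAM1 was called in thymus, at 9.46 and 1.43 (SE 0.10) above pancreas, and VWF, CDH5 and KDR were not. ADAMTS9 was lowest in pancreas at 7.501 ± 0.09. The part of endothelial cells in the ADAMTS9 signal was not tested. ADAMTS6 came close to the minimum in fibroblast, where it was 0.94 (SE 0.12) above thymus. Of the other 11 ADAMTS genes, none reached a difference of 1, and the largest was 0.71 (SE 0.08) for ADAMTS19 in pancreas. Among the 4 ADAMTS-like genes none was called, with ADAMTSL1 at 0.75 (SE 0.06) in fibroblast over pancreas and ADAMTSL4 at 7.82 in fibroblast and 7.80 in testis (difference 0.02, 95% interval -0.19 to 0.22).

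**Figure D4:**
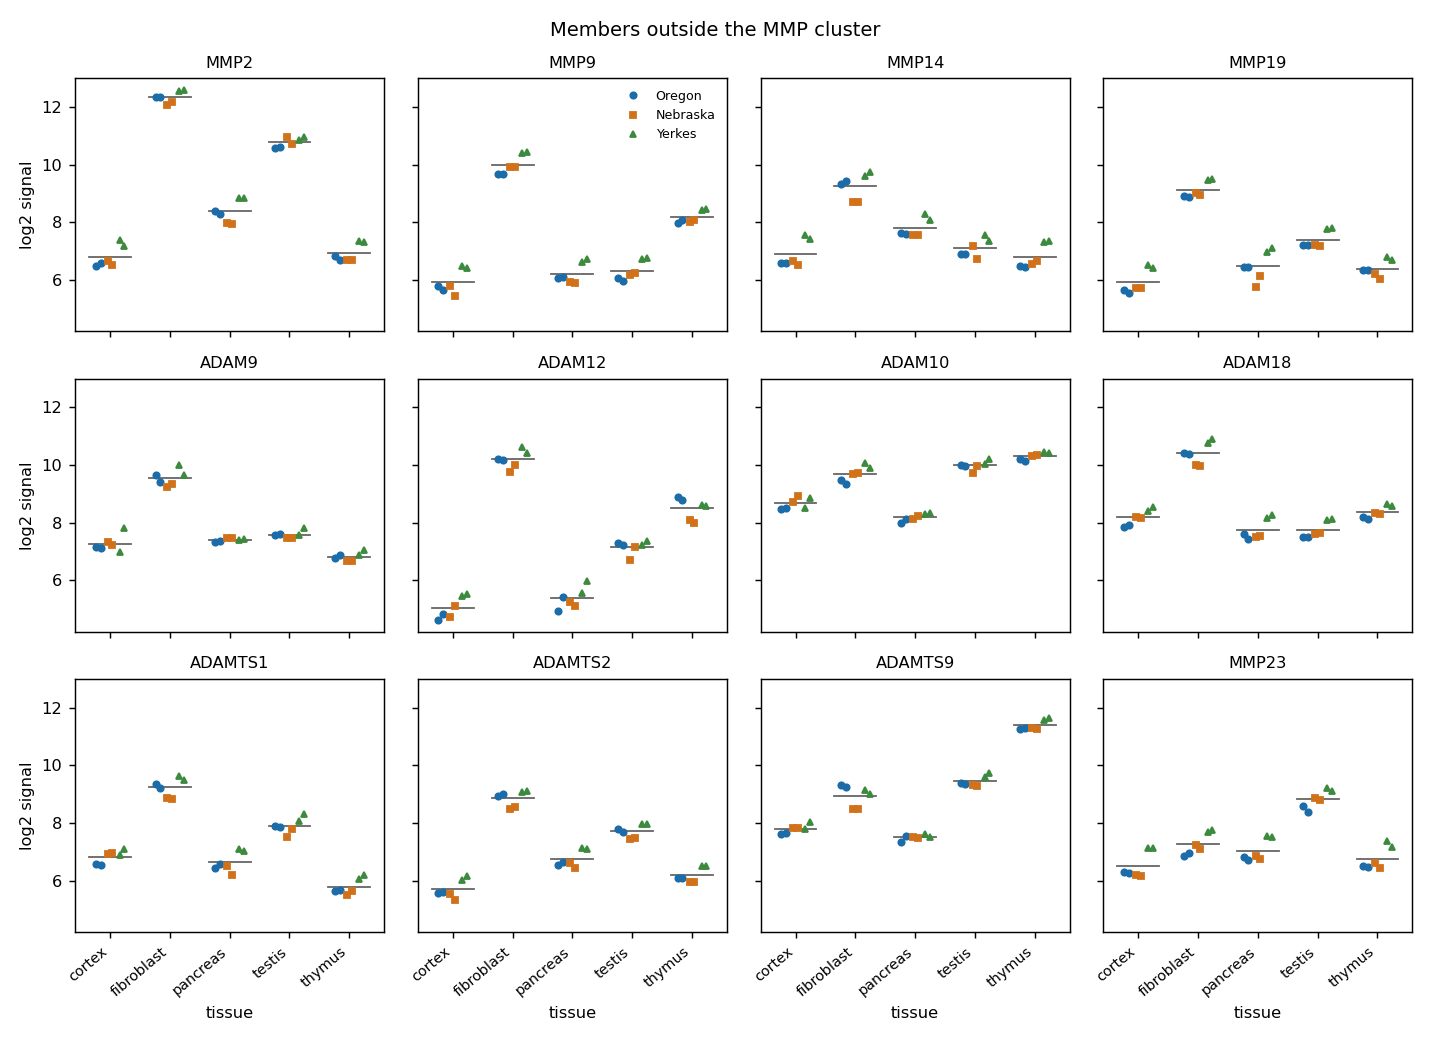
Log2 signal (y axis) on each array by tissue (x axis) for 12 genes outside the MMP cluster, with symbols for the center and a line at the mean of 6 arrays. MMP2 and ADAMTS1 have testis as their second tissue, MMP9 and ADAM12 have thymus, and ADAMTS9 is highest in thymus.

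The tissue that came second to fibroblast was not the same for the 16 called genes. Testis was next for 6 genes (MMP2, MMP19, ADAM9, ADAMTS1, ADAMTS2 and TIMP1), thymus for 5 (MMP1, MMP9, MMP13, ADAM12 and ADAM18), pancreas for 4 (MMP3, MMP10, MMP14 and MMP27) and cerebral cortex for ADAM15. For some of these the values below fibroblast were low and close, so the second place says little. MMP3 averaged 4.81 in pancreas and 4.59 in thymus, and MMP27 3.53 and 3.30. MMP13 averaged 4.86 in thymus and 4.75 in testis. For all 16 genes the fibroblast arrays lay above every other array, over all 30 arrays and within each center. The same held for 7.28% of all genes over all arrays and for 14.3% within each center. The 16 genes were chosen by the signals of these same arrays, so the lack of overlap is a description and no further result. Their difference was at least 1 for 15 genes at Oregon, 15 at Nebraska and 16 at Yerkes, and for 14 genes at every center. These counts too are a description, since the arrays of each center entered the choice of the genes. Without the pancreas arrays, an alternative chosen after the values were seen because pancreas had the highest array medians, 17 genes were called in fibroblast and 5.67% of all genes.

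Pancreas had the highest mean for 19 of the 55 genes, but the differences were 0.01 to 0.71 and none was called. They included 7 of 17 ADAMTS genes and 7 of 22 MMPs. The share of all genes with their highest mean in pancreas was not computed, so these counts cannot be set against it. Without the minimum of 1, 15 of the 55 genes exceeded every other tissue in pancreas, where 21.2% of all genes did. The median signal of the pancreas arrays was also the highest of the 5 tissues at each center, and the paper rates their data quality as lower. The part of either in these small differences was not tested.

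Most genes were on more than 1 probeset, and the dimmer probesets did not always give the same tissue. There were 55 further probesets for 34 genes. Of the 11 genes called in fibroblast that had several, 4 (MMP1, MMP14, ADAM12 and ADAMTS2) had another probeset called there. The second MMP1 probeset averaged 10.13 in fibroblast and 5.56 in thymus, a difference of 4.57 (SE 0.22). The second MMP2 probeset did not separate fibroblast from pancreas (0.02, SE 0.08), and that of MMP19 was highest in pancreas by 0.47. ADAMTS9 had a second probeset called in thymus, at 10.96 and 1.73 (SE 0.09) above testis, while 3 others were highest in pancreas by less than 1. With the mean over all probesets of each gene, 13 genes were called in fibroblast and none in thymus. The differences fell to 0.97 for MMP2, 0.97 for ADAM18, 0.43 for ADAM15 and 0.42 for ADAMTS9. RMA signals of different probesets are not on a common scale. The choice of the brightest probeset, the array medians and the means over markers or probesets combine such signals and are rough for that reason.

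For some genes a dimmer probeset was called in a tissue where the brightest was not. These genes were chosen after their values were seen. MMP7 had a pair of probesets at 7.41 and 7.47 in pancreas, at 6.25 and 6.15 in thymus and at 5.12 or less in the other 3 tissues. Their differences from thymus were 1.16 (SE 0.09) and 1.31 (SE 0.10), so MMP7 was called in pancreas by both of them and in no tissue by its brightest probeset. For ADAM22, another probeset was 1.52 (SE 0.08) higher in cerebral cortex than in pancreas. The aggrecanases ADAMTS4 and ADAMTS8 each had a probeset called in cerebral cortex, by 1.12 (SE 0.09) and 1.07 (SE 0.08). For ADAM18 the other probeset was highest in testis at 6.26, by 0.43 (SE 0.08), and was not called. ADAMTSL1 was called in fibroblast by a dimmer probeset, with 1.10 (SE 0.07), where the brightest gave 0.75. Of the 55 further probesets, 3 were called in cerebral cortex (5.45%, against 5.73% of the further probesets of all genes), 2 in pancreas (3.64% against 1.31%), 5 in fibroblast (9.09% against 3.45%), 1 in thymus (1.82% against 3.82%) and none in testis (1.43%).

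**Figure D5:**
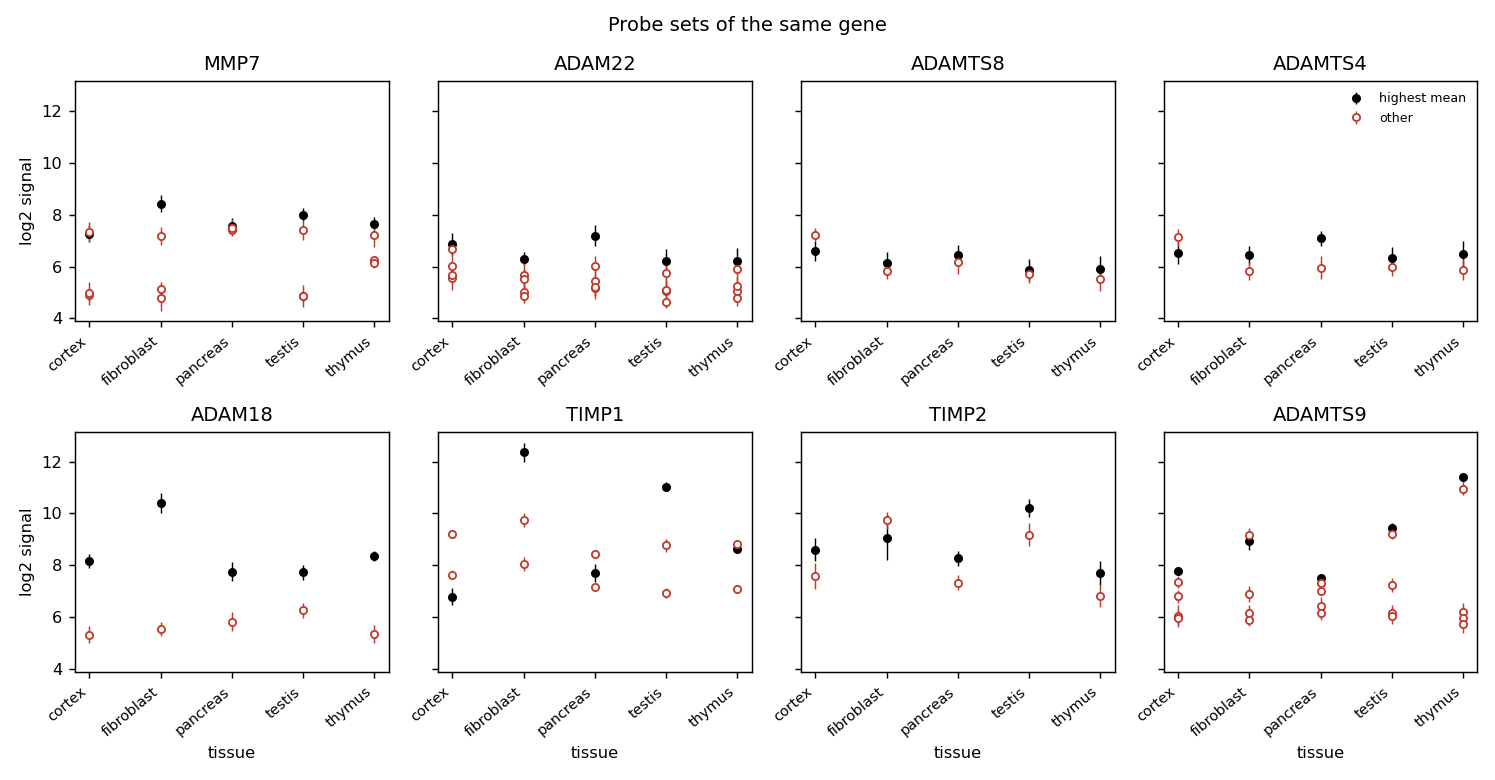
Mean log2 signal (y axis, bars are the SD of 6 arrays) of every probeset of 8 genes by tissue (x axis), with the brightest probeset in black and the others open. Probesets of ADAMTS9 that are bright share their maximum in thymus, whereas MMP7, ADAM22 and ADAM18 have probesets with different maxima.

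The tissue pattern depended on the center for 21 of the 55 genes by the limma interaction test, against 33.4% of all genes. Among these 21, TIMP2 alone had a difference from the next tissue that varied by at least 1 over the centers. MMP2 (interaction adjusted p = 0.00134), TIMP1 (0.0021) and ADAM18 (0.00093) also passed the limma test, and the lowest difference of fibroblast from the next tissue at any center was 1.28, 0.996 and 1.67, each time at Nebraska. With the Nebraska arrays alone TIMP1 was thus just short of the minimum. For MMP3 and MMP1 the adjusted p was 0.445 and 0.13.

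Genes that act with these proteinases were taken from a list of 70 genes, of which 53 were measured. Of the 53 genes, 16 were called higher in 1 tissue, and 17.5% of all genes were called in any tissue. There were 10 in fibroblast (4.63% of all genes), 3 in cerebral cortex (5.63%), 2 in thymus (3.33%), 1 in testis (1.97%) and none in pancreas (1.98%). The counts in cerebral cortex, thymus and testis were near the shares of all genes, so the calls there are given as single genes. Another 5 calls were of lower signal, all in cerebral cortex, for FRMD8, COL1A1, COL1A2, FBN1 and ITGB1 (5.02% of all genes were called lower in 1 tissue). Among 5 activators, 1 was called. This was PLAU (urokinase), which starts the plasmin cascade that opens MMP zymogens, at 8.92 in fibroblast and 2.28 (SE 0.06) above pancreas. Its receptor PLAUR was at 8.47 in fibroblast and 8.13 in testis and was not called.

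Of 4 further inhibitors, 3 were called in 3 different tissues. TFPI2, a serine proteinase inhibitor of the matrix, was at 9.67 in cerebral cortex, 1.78 (SE 0.08) above pancreas. SERPINE2, an inhibitor of thrombin and urokinase, was 1.24 (SE 0.07) higher in fibroblast than in testis, and PAPLN, a papilin related to the ADAMTS proteins, was 1.20 (SE 0.09) higher in testis than in cerebral cortex. RECK, a membrane-anchored inhibitor of MMPs, was at 8.29 in testis and 8.20 in fibroblast and was not called. Of 7 partners of ADAM10 and ADAM17, RHBDF1 was called in fibroblast, by 1.26 (SE 0.07), but by 0.62 and short of the minimum after quantile normalization of all 30 arrays together. With the mean over all probesets TFPI2 was lower in cerebral cortex than in the highest other tissue (-2.57), and PAPLN (0.64) and RHBDF1 (0.13) were below the minimum.

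Substrates of both kinds were called, mostly in fibroblast. Of 11 genes released by sheddases, the growth factor genes AREG and HBEGF were higher in fibroblast by 3.51 (SE 0.08) and 1.68 (SE 0.06), and the adhesion molecule L1CAM was higher in cerebral cortex by 1.03 (SE 0.12). L1CAM was just inside the minimum (Oregon 1.18, Nebraska 0.623, Yerkes 1.28, limma interaction adjusted p = 0.0163), and its call was lost without the Oregon arrays (0.953) or without the Yerkes arrays (0.903). Of 13 matrix substrates 4 were called, all in fibroblast. The largest differences were 2.21 (SE 0.07) for FN1 (fibronectin), 1.495 (SE 0.15) for COL1A1 and 1.38 (SE 0.06) for COL1A2. COL1A1 and COL1A2 are also among the fibroblast markers above, so their calls are no separate result. With the mean over all probesets, HBEGF (0.79), L1CAM (0.87), COL1A1 (0.84) and the matrix gene FBN1 (0.64) fell below the minimum and lost their calls. Among 3 partners of the ADAMs without an active site, ITGB1 was called in fibroblast (1.37, SE 0.20; Oregon 2.17, Nebraska 0.659, Yerkes 1.28) and the ADAM22 ligand LGI4 in cerebral cortex (1.23, SE 0.08). The tissue pattern of ITGB1 depended on the center (limma interaction adjusted p = 8.08e-08), and without the Oregon arrays its difference was 0.970, short of the minimum. Of 5 inducers and transcription factors, ETS1 was called in thymus by 2.06 (SE 0.07), while FOS in fibroblast missed the minimum with 0.91 (SE 0.07). Of 5 related proteinases, ADAMDEC1, a secreted ADAM-like enzyme of immune tissue, was called in thymus by 1.75 (SE 0.09).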

How the data were processed

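Total RNA was extracted with Trizol, treated with DNase, cleaned on RNeasy columns, labeled with biotin and hybridized with the rhesus macaque GeneChip at 3 centers. The deposited values are log2 signals. The authors exported the scans from GCOS, corrected background with the MAS procedure, quantile normalized the arrays of each center separately and summarized all 30 arrays together by RMA (the versions of GCOS and RMA are not given in the sources used here). All 52865 probesets were fitted with limma 3.58.1 in R 4.3.3, with tissue and center as terms, and p-values of each contrast were adjusted over all probesets by Benjamini-Hochberg. Calls were counted over 14133 genes with a single symbol in the platform annotation of 2016, 1 probeset per gene. There were 361 probesets with several symbols and 27535 with none listed, and both kinds entered the fit but no count. A tissue by center model gave the interaction test. The code was tested on simulated data. With 6 arrays per tissue, the number of arrays limits the precision. The RefSeq assembly table served for the order of genes.

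Named genes were the up to 8 called genes per tissue with the largest difference, the TIMPs, MMP2, MMP9, MMP14, ADAM10, ADAM22 and ADAM18, the up to 3 called genes per group of the pathway list, and genes with an interaction and a difference that varied by at least 1 over centers. Other named genes were chosen after their values were seen. The genes and lists were chosen with earlier results of these data known. Alternatives were another normalization, no center term, single centers, each center left out, averaged aliquots, all probesets of a gene, a filter on low signal, an intensity trend, other minimum differences and a replicate block.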

Additional observations from a re-analysis of the deposited data

Results flagged for a closer look

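TIMP2 differed between centers in its difference between testis and fibroblast. The difference ran from -0.02 (Oregon) over 1.19 (Yerkes) to 2.31 (Nebraska), a range of 2.33 on the log2 scale, and the limma interaction of tissue and center had an adjusted p of 6.55e-06. The other TIMP2 probeset was higher in fibroblast than in testis by 0.55 (SE 0.16) (Oregon 0.96, Nebraska -0.06, Yerkes 0.75). For both probesets fibroblast stood lowest against testis at Nebraska. None of 85 groups of 6 arrays held an array that was flagged by Dixon's test. Each group consisted of aliquot pairs from different centers, an arrangement in which this test can hardly flag a lone array. The lack of flags therefore does not show that no array stood apart.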

How the results depend on the processing

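By direction and adjusted p alone, 210 of 219 values of 17 named genes kept their status, 7 lost the threshold and 2 reversed. A kept status includes TIMP3 in testis, which did not pass in the main fit (limma adjusted p = 0.0819) and so had no threshold to lose. With the minimum of 1 as well, 172 of 180 values of the called ones held. ADAM15, whose call was lost in several settings, was not among these named genes. The values of named genes that did not hold were MMP14 (0.88) with joint quantile normalization and TIMP1 (0.996) with Nebraska alone. TIMP2 did not hold with Oregon alone, without Nebraska (0.58) and with all probesets averaged. MMP2 (0.97), ADAM18 (0.97) and ADAMTS9 (0.42) did not hold with all probesets averaged. TIMP2 in testis reversed with the Oregon arrays alone (-0.024, limma adjusted p = 0.779) and was 0.31 with the mean over all probesets. ADAM22 in pancreas reversed with the mean over all probesets (-0.36). ADAM10 in thymus lost the threshold with no center term, with Oregon or Yerkes alone and with all probesets averaged. ADAM22 in pancreas also lost it with no center term (limma adjusted p = 0.252). The fibroblast count of 16 (4.63% of all genes) was 14 after quantile normalization of all 30 arrays together (3.3%). It was 15 to 17 with a center left out or alone (4.31% to 5.19%). With all probesets averaged it was 13 (3.71%), and with dim genes removed also 13 (5.74% of all genes left). With no minimum difference it was 21 (16.7%), and with a minimum of 2 it was 5 (1.32%). Genes lower in 1 tissue numbered 1 after quantile normalization together, 1 with Oregon alone and 21 with no minimum. Testis had 1 gene without Nebraska (1.88% of all genes), with Oregon alone (2%) and with all probesets averaged (1.68%), and 0 at a minimum of 2 (0.545%). Thymus had 0 with all probesets averaged (3.14% of all genes) and at a minimum of 2 (1.14%), and 5 with no minimum (12.6%). With no minimum, cerebral cortex had 1 (13.3% of all genes) and pancreas had 15 (21.2%). Called pathway genes numbered 48 with no minimum and 4 at a minimum of 2. For these pathway counts and the counts of lower genes, no share over all genes is given here. After quantile normalization together, pancreas had 14 with no minimum (22.2% of all genes), an alternative chosen after seeing the data. The interaction count of 21 of 55 genes (38.2%, against 33.4% of all genes) was 17 after joint quantile normalization (30.9% against 29.8%). With an intensity trend it was 22 (40%), below the share of all genes (42.8%). With dim genes removed it was 25 of the 40 genes left (62.5%, against 59.0% of all genes left). Deviations of same-numbered aliquots correlated at -0.06 to 0.02 at Oregon and -0.06 to 0.09 at Nebraska. At Yerkes the correlations ran from -0.30 to 0.35 with a median of 0.0006, so some arrays there deviated together. The numbers were not used to pair the samples in the main fit. With a replicate block of center and aliquot number the counts stayed at 16 in fibroblast, 2 in testis, 1 in thymus, 0 in cerebral cortex and pancreas, 0 lower and 16 pathway genes. Leaving out each center in turn served in place of leaving out single arrays. The cause of these changes was not tested. With 1 RNA per tissue and no detection calls, differences between animals and absence of a transcript could not be assessed.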
